A study of Homo sapiens with 10 samples.

Results

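Among the 15086 ZMYND8 peaks that the authors deposited for HEK293 cells, 1650 were narrow, shared with the FLAG-ZMYND8 pull-down and far from gene starts. They were chosen by measured values: a width under 1000 bp, an overlap of at least 1 bp with a FLAG-ZMYND8 peak, and a midpoint over 3 kb from the start of every annotated gene on chromosomes 1 to 22 and X. They made up 10.9% of the 15085 ZMYND8 peaks on those chromosomes. The width, the sharing and the distance from gene starts are therefore part of the selection and not results.

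ZMYND8 is a chromatin reader. Its PHD, bromodomain and PWWP modules sit side by side and contact the tail of histone H3 and DNA, and its MYND domain recruits other proteins. It is known to associate with the NuRD and CoREST corepressor complexes and with the H3K4 demethylase KDM5C, which limits the activity of enhancers. Enhancers are regulatory elements that lie away from the gene start and raise transcription of a gene on the same chromosome. They are commonly recognised by acetylated histones such as H3K27ac. CpG islands are stretches rich in the dinucleotide CpG, mostly unmethylated, that cover many promoters, and a gene often has several promoters that give different transcripts.

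ChIP-seq recovers crosslinked chromatin with an antibody and sequences its DNA. The study compared where ZMYND8 lies in the genome with the marks H3K27ac and H3K14ac, in Flp-In T-REx HEK293 cells, an established human embryonic kidney line, with chromatin digested by micrococcal nuclease. The ZMYND8 ChIP had 2 replicates and used an antibody to the protein itself, and the labels describe its cells as carrying 3xFLAG-ZMYND8 or the N228F mutant of it without saying which. The FLAG-ZMYND8 ChIP had 2 replicates of cells in which 10 nM doxycycline overexpressed full length 3xFLAG-ZMYND8 from an integrated copy, precipitated through the FLAG tag. The remaining samples, 2 of H3K14ac, 2 of H3K27ac and 2 of input DNA, were not analysed here, so the name enhancer-like could not be checked against the marks that define enhancers. The peaks are called narrow shared distal peaks below. Each target had 1 list with no replicates, counts or scores that rank peaks. No difference could therefore be set against the spread between replicates, the depth is unknown, and every interval given is a 95% interval that covers the counting of peaks only.

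The sequences of 8 narrow shared distal peaks are printed first, on the + strand of hg19, 5′ to 3′, with CpG dinucleotides in capitals. The first 4 come from groups of neighbouring peaks, with 5 peaks upstream of SMAD7, 4 at SLC7A5 and 3 each at EML4 and RYBP, the next 2 from the 5 peaks farthest from any gene start, and the last 2 show the CpG-dense kind at the start of another RERE transcript and away from any transcript start. The last 2 were picked after their values were seen.
SMAD7 upstream group, chr18:46533347-46533554: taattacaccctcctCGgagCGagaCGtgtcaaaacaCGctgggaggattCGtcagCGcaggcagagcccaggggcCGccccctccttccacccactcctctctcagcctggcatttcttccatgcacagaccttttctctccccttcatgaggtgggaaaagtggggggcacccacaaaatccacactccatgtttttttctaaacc
SLC7A5 intron, chr16:87883575-87883725: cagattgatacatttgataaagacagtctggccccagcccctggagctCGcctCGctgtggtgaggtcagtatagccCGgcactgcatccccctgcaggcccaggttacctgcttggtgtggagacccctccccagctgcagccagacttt
EML4 upstream, chr2:42364591-42364820: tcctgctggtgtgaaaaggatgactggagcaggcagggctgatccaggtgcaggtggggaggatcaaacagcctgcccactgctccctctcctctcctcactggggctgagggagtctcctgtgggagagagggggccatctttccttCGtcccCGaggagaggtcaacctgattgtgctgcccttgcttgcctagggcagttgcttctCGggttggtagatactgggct
RYBP downstream, chr3:72385998-72386148: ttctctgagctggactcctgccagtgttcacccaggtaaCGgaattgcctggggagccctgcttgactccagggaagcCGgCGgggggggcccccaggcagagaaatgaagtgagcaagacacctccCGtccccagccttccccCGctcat
GLI3 upstream, chr7:42532994-42533144: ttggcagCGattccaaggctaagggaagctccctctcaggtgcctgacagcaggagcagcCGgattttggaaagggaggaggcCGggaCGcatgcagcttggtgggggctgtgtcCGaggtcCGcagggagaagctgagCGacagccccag
FOXC1 downstream, chr6:1821518-1821668: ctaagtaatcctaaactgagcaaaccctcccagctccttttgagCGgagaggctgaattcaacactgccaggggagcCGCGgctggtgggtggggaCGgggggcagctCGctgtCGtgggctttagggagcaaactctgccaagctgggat
RERE intron, chr1:8877962-8878112: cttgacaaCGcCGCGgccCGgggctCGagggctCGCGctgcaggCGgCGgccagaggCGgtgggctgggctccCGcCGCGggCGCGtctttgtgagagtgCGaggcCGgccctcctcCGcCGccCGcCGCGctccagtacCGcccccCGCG
EBLN1 side, chr10:22518009-22518276: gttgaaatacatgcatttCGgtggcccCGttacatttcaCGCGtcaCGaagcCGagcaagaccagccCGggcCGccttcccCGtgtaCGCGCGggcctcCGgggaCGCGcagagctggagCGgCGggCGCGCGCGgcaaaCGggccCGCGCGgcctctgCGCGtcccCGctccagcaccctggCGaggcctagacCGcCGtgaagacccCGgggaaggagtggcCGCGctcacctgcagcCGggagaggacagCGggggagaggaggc
The printed peaks of the upstream SMAD7 group and the SLC7A5, EML4 and RYBP groups held between 3 and 7 CpG dinucleotides each. The RERE peak held 25 in 151 bp and the EBLN1 peak 36 in 268 bp. RERE encodes a transcriptional corepressor of the atrophin family. The RERE peak lay in an intron, 338 bp from the start of a shorter transcript, while the EBLN1 peak lay between genes and 3516 bp from the nearest transcript start.

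The widths describe the selection. The median width in the ZMYND8 list was 191 bp (range 151 to 984), and 700 of them (42.4%) had the list's minimum width of 151 bp. The overlapping FLAG-ZMYND8 peak had a median width of 287.5 bp (quartiles 167 and 493.8, largest 3561). It was necessarily the wider of the pair at the 700 sites of minimum ZMYND8 width, and it was wider at 511 of the other 950 (53.8%). At 240 sites (14.5%) both peaks had the minimum width of their list, which is 167 bp for FLAG-ZMYND8. The midpoints of the paired peaks were a median of 89 bp apart, and at 750 sites (45.5%) each peak covered at least 50% of the other. The overlap was 1 bp at 3 sites, while 32.6% of the ZMYND8 peaks were fully covered. Just inside the limits lay peaks of 984, 982, 981, 980 and 978 bp and peaks 3001, 3005, 3009, 3015 and 3020 bp from a gene start. Just outside them lay peaks of 1000, 1014, 1015, 1019 and 1023 bp and peaks 2999, 2985, 2979, 2978 and 2967 bp from a gene start.

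Of the 6903 narrow distal ZMYND8 peaks, 23.9% overlapped a FLAG-ZMYND8 peak. In the whole list 40% did (6039 of 15085), and both shares describe the selection only. The other 5253 narrow distal peaks, called antibody-only below, overlapped no FLAG-ZMYND8 peak. They serve as the nearest comparison, together with 3618 narrow shared peaks within 3 kb of a gene start and a grid of 126107 distal genome windows placed every 20 kb. Of the antibody-only peaks, 79.1% had the minimum width. FLAG-ZMYND8 peaks were numerous on distal DNA, and 4.39% of the 37876 distal FLAG-ZMYND8 peaks lay under a narrow shared distal peak. At least 3 FLAG-ZMYND8 peaks lay within 10 kb of 65.1% of the narrow shared distal peaks, against 27.4% of the antibody-only peaks, but the selection itself supplies at least 1 of them. A second ZMYND8 peak lay within 10 kb of 38.5% and of 25.7%.

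Most of the peaks lay within genes. By midpoint, 929 (56.3%, 53.9 to 58.7) were intronic, 91 (5.52%, 4.51 to 6.72) fell in coding exons, 210 (12.7%, 11.2 to 14.4) in other exons and 420 (25.5%, 23.4 to 27.6) between genes. The share inside any gene was 74.5% (72.4 to 76.6), against 67.9% of the antibody-only peaks, a difference of 6.6 points (4.11 to 9.01), and 61.4% of the grid windows. Exons outside coding sequence held 12.7% against 6.66% (difference 6.06 points, 4.39 to 7.88), and coding exons 5.52% against 4.15% (difference 1.37 points, 0.211 to 2.68). By construction, a distal peak within 1 kb of a transcript start almost always lies inside a gene. All 455 such peaks did, so the share inside a gene partly restates the share at transcript starts. Away from transcript starts, the excess inside a gene over the antibody-only peaks was not detectable. Among peaks over 1 kb from every transcript start, 64.9% (62.1 to 67.5) were inside a gene, against 63.8% (62.4 to 65.2) of the antibody-only peaks (difference 1.06 points, -2.01 to 4.06) and 60.2% of the grid windows. The intronic share did not separate the sets, with a difference of -0.826 points (-3.58 to 1.9) from the antibody-only peaks and of -1.13 points (-3.55 to 1.26) from the grid. The share inside a protein-coding gene was 64.2% (61.8 to 66.5), against 57.5% of the antibody-only peaks.

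**Figure D1:**
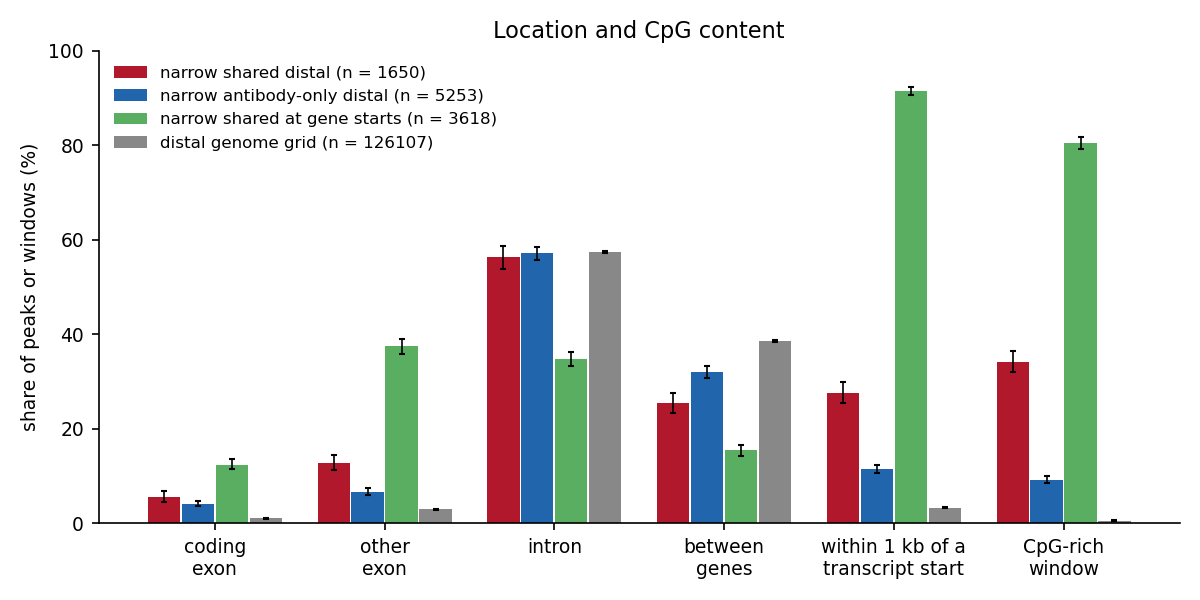
Share of each set of peaks or windows (y axis, percent) by the annotation at the midpoint, within 1 kb of a transcript start and in a CpG-rich 500 bp window. Bars are shares and whiskers 95% Wilson intervals; the narrow shared distal peaks stand between the antibody-only peaks and the peaks at gene starts for transcript starts (27.6%, 11.5% and 91.5%) and for CpG-rich windows (34.2%, 9.19% and 80.5%), and differ little from the antibody-only peaks in the intronic share.

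A sizeable share of the peaks was at the start of another transcript, although all were far from gene starts. An annotation gives each gene a single start, at the 5′ end of its outermost transcript, and the rule used no other starts. Within 1 kb of an annotated transcript start lay 455 of the 1650 peaks (27.6%, 25.5 to 29.8), against 11.5% of the antibody-only peaks, a difference of 16.1 points (13.8 to 18.4), and 3.25% of the grid windows. The transcripts belonged to protein-coding genes in 418 of the 455 cases (91.9%) and to long noncoding RNAs in 36. They came from 439 different genes, so few genes contributed more than 1. Of the 455 peaks, 319 (70.1%, 65.7 to 74.1) were within 300 bp of the start and 289 (63.5%, 59 to 67.8) lay downstream of it.

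Width differed between the sets, so the comparison was repeated within width classes. Among peaks of the minimum width, 20.7% (17.9 to 23.9) of the narrow shared distal peaks and 9.94% (9.07 to 10.9) of the antibody-only peaks were within 1 kb of a transcript start. Among wider peaks the shares were 32.6% (29.7 to 35.7) and 17.5% (15.3 to 19.8). The order of the sets was the same in both classes. A distance of over 3 kb from every transcript start, a stricter sense of distal, was met by 1057 peaks (64.1%).

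**Figure D2:**
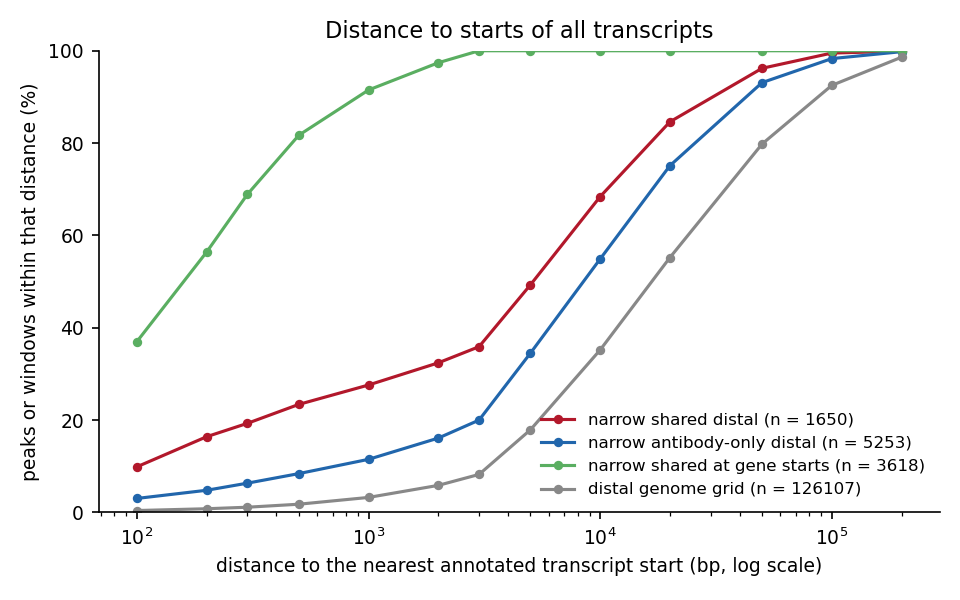
Cumulative share of each set (y axis, percent) within a given distance of the nearest annotated transcript start (x axis, bp, log scale). The curve of the narrow shared distal peaks runs above those of the antibody-only peaks and the grid, with 27.6%, 11.5% and 3.25% within 1 kb.

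The 10 widest peaks include both kinds of site. The widest was a 984 bp peak in an exon of PPP2R2C, a regulatory subunit of protein phosphatase PP2A, 246 bp from the start of a shorter PPP2R2C transcript and 91232 bp from the gene's first start. A 982 bp peak lay in a coding exon of AVEN, an inhibitor of apoptosis, 339 bp from an AVEN transcript start, and a 960 bp peak lay 194 bp from a transcript start of SPRING1. A 977 bp peak in an exon of NTN1, which encodes the axon guidance cue netrin-1, was 218606 bp downstream of the NTN1 start and 4781 bp from the nearest transcript start, which belonged to another gene. GC content of the central 200 bp was 84.5% at PPP2R2C, 84% at AVEN and 83.5% at NTN1, but 53% at SPRING1.

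The rest of the 10 widest peaks were away from transcript starts. A peak of 981 bp covered a coding exon of PRDM12, a transcriptional regulator of sensory neurons, and had 82% GC. Intronic peaks of 980 bp in FAM83G, 978 bp in EPHB3, which encodes an ephrin receptor, and 968 bp in GNG7, a G protein subunit, had 65%, 70% and 55.5% GC. A 975 bp peak lay between genes, 32737 bp upstream of PIM1, a serine/threonine kinase gene. The 960 bp peak near BOC, a hedgehog co-receptor gene, had 42% GC and lay 61205 bp upstream of its start. Over the 10 widest peaks, the FLAG-ZMYND8 partners measured from 167 bp at BOC to 1133 bp at FAM83G.

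The peaks were rich in GC and in CpG. The central 200 bp had a median GC content of 60% (59.5 to 60.5), against 56% (55.5 to 56) in the antibody-only peaks, 66.5% (66.5 to 67) in the peaks at gene starts and 39.5% in the grid. The median number of CpG dinucleotides in those 200 bp was 7, against 4, 17 and 1. A window of 500 bp was called CpG-rich when it had at least 50% GC and a CpG content of at least 0.6 of that expected from its C and G content. Such windows held 564 of the peaks (34.2%, 31.9 to 36.5) and 9.19% of the antibody-only peaks, a difference of 25 points (22.6 to 27.4). The grid share was 0.537%. Among peaks of minimum width the shares were 21% (18.1 to 24.2) and 6.02% (5.33 to 6.78), and among wider peaks 43.9% (40.8 to 47.1) and 21.2% (18.9 to 23.7).

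The peaks at transcript starts and the CpG-rich peaks overlapped in part. Of the 455 peaks at another transcript start, 313 (68.8%, 64.4 to 72.9) were CpG-rich, with a median GC of 66% and 15 CpG dinucleotides. Of the 1195 other peaks, 251 (21%, 18.8 to 23.4) were CpG-rich, with a median GC of 58.5% and 5 CpG dinucleotides over all 1195. The peaks at transcript starts were also wider, with median widths of 228 and 325 bp in the ZMYND8 and FLAG-ZMYND8 lists, against 189 and 265 bp. The largest class, 944 peaks (57.2%), was neither at a transcript start nor CpG-rich. It had a median GC of 57%, a median width of 151 bp and a FLAG-ZMYND8 partner of 257 bp.

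**Figure D3:**
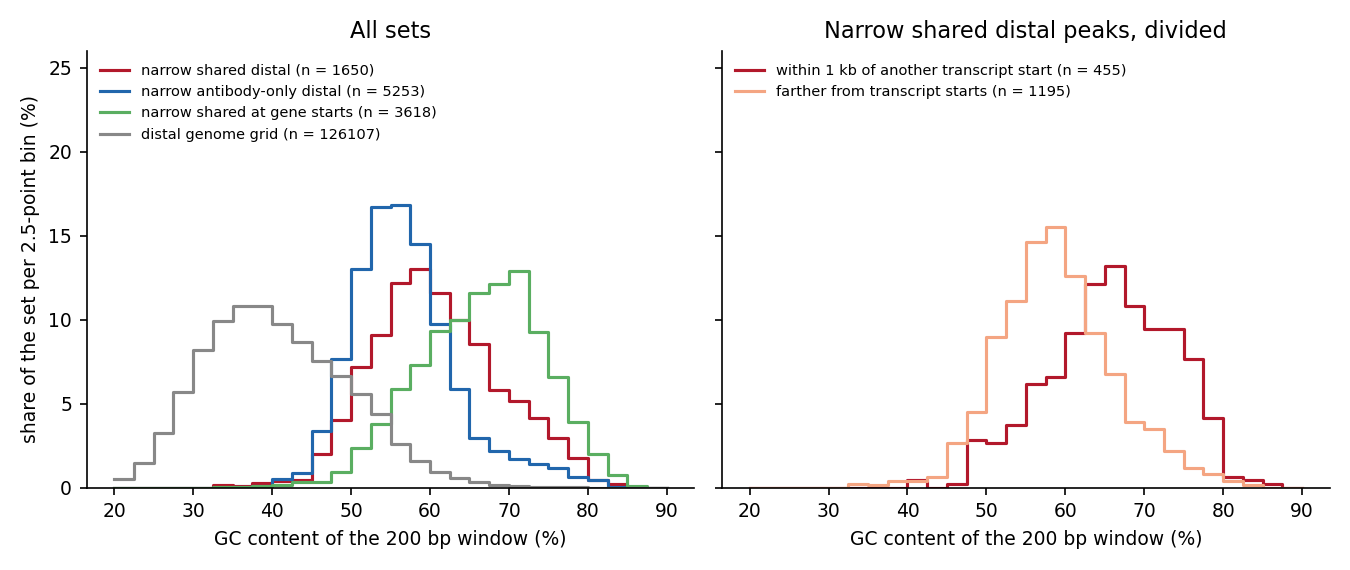
GC content of the central 200 bp (x axis, percent) against the share of the set in each bin of 2.5 points (y axis, percent). Left, the 4 sets, with the narrow shared distal peaks between the antibody-only peaks and the peaks at gene starts; right, the narrow shared distal peaks divided by distance to other transcript starts, with medians of 66% for the 455 within 1 kb and 58.5% for the other 1195.

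Because the sets differed in GC, both measures were compared within windows of 55 to 65% GC. There, 20% (17.4 to 23) of 774 narrow shared distal peaks, 10.5% (9.33 to 11.8) of 2462 antibody-only peaks and 8.96% (8.32 to 9.64) of 7165 grid windows were within 1 kb of a transcript start. The difference from the antibody-only peaks was 9.55 points (6.59 to 12.7). CpG-rich windows made up 21.4%, 5.2% and 3.7%, a difference of 16.2 points (13.3 to 19.4) from the antibody-only peaks. In windows of 45 to 55% GC, 11.7% of 369 narrow shared distal peaks were within 1 kb of a transcript start, against 5.41% of the antibody-only peaks (difference 6.25 points, 3.18 to 10), and 8.13% against 0.979% were CpG-rich (difference 7.15 points, 4.72 to 10.4). Both measures were thus higher than in the antibody-only peaks in both GC bands.

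Short DNA words bound by known factor families were counted in the central 200 bp on both strands, with 19 words in all and intervals not adjusted for that number. ACGTG lies within CACGTG, and other words can share bases. Against the antibody-only peaks, 7 words were more frequent by the interval of the difference, 3 were less frequent and 9 were not separated. Of the 7, 6 contain CG in their letters, and of the 3, 0 do. The counts were repeated within bands of GC content. In windows of 55 to 65% GC, over 774 narrow shared distal peaks, 7 words were more frequent, 2 less frequent and 10 not separated. In windows of 45 to 55% GC, over 369 narrow shared distal peaks, all 19 were not separated from the antibody-only peaks. The second band holds fewer peaks, so the fall in separated words alone cannot tell whether the differences change with GC content. The word TGANTCA differed by 2.11 points in the first band and by 2.18 in the second, and only the first was separated. Every other word separated in the first band differed less in the second. GGGCGG, for example, differed by 6.13 and 0.627 points, and TGTGGT by -5.81 and -2.73 points. Whether the differences change with GC content was not tested.

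The GC box GGGCGG, bound by SP and KLF factors that act at many promoters, was in 25.8% (23.7 to 27.9) of the peaks, 13.3% of the antibody-only peaks, 47.6% of the peaks at gene starts and 2.36% of the grid windows. At 55 to 65% GC it was in 17.8%, against 11.7% of the antibody-only peaks and 12% of the grid, a difference of 6.13 points (3.27 to 9.23) from the former. At 45 to 55% GC it was in 5.15% against 4.52% (difference 0.627 points, -1.44 to 3.49). Over all GC contents, the GC box was in 40.9% of the 455 peaks at another transcript start and in 20% of the other 1195. The bands match GC content only. Within them the sets still differed in transcript starts and CpG-rich windows, as given above. The E-box CACGTG, bound by MYC, MAX and USF proteins, was in 6.67% (5.56 to 7.97), against 5.04% and a grid share of 1.75%. At 55 to 65% GC the shares were 7.49%, 5.36% and 3.99%, and at 45 to 55% GC 4.61%, 4.48% and 2.97%. The E2F word TTCCCGCC was in 2.18% against 0.857%, and the cAMP response element TGACGTCA, bound by CREB and ATF proteins, in 11 peaks (0.667%, 0.373 to 1.19) against 0.209%. Its separation at 55 to 65% GC rests on 4 of 774 against 3 of 2462 peaks (difference 0.395 points, 0.00094 to 1.2). The CTCF core AGGNGGC was in 30% against 26.3%, but at 55 to 65% GC the shares were 28.3% and 27.9% and were not separated (difference 0.431 points, -3.12 to 4.14).

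The AP-1 word TGANTCA, bound by FOS and JUN dimers, was in 99 peaks (6%, 4.95 to 7.25), against 5.33% of the antibody-only peaks (difference 0.67 points, -0.558 to 2.05), 6.33% of the grid and 2.57% of the peaks at gene starts. Within 55 to 65% GC it was in 6.46% (4.93 to 8.42), against 4.35% of the antibody-only peaks (difference 2.11 points, 0.353 to 4.2) and 4.03% of the grid. Within 45 to 55% GC it was in 8.94% against 6.76% of the antibody-only peaks, not separated (difference 2.18 points, -0.569 to 5.68), and 6.19% of the grid. Over all GC contents, TGANTCA was in 3.74% of the peaks at another transcript start and in 6.86% of the others. The NFI word TTGGCA was in 10.7% against 9.61% over all peaks, not separated, in 12.7% against 9.42% at 55 to 65% GC (difference 3.24 points, 0.759 to 5.99) and in 11.9% against 11% at 45 to 55% GC (difference 0.922 points, -2.31 to 4.83). The TEAD word GGAATG was in 10.1% (8.7 to 11.6), against 11% and a grid share of 10.6%, and these were not separated (difference from the antibody-only peaks -0.905 points, -2.52 to 0.843).

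The RUNX word TGTGGT and the nuclear receptor word AGGTCA were rarer than in the antibody-only peaks, over all peaks and at 55 to 65% GC. At 45 to 55% GC, with fewer peaks, neither was separated. TGTGGT was in 9.52% (8.19 to 11) against 15.1% (difference -5.54 points, -7.2 to -3.76). At 55 to 65% GC it was in 9.3%, against 15.1% and a grid share of 15.3%, and at 45 to 55% GC in 15.4% against 18.2% (difference -2.73 points, -6.47 to 1.6) and 17.9%. AGGTCA was in 14.4% against 18.6% (difference -4.27 points, -6.21 to -2.22). The grid share over all GC contents was lower still, at 12.4% (difference 1.93 points, 0.307 to 3.71). At 55 to 65% GC the word was in 16%, against 19.6% (difference -3.56 points, -6.46 to -0.414) and a grid share of 21%. At 45 to 55% GC it was in 19% against 20.7% (difference -1.78 points, -5.85 to 2.85).

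**Figure D4:**
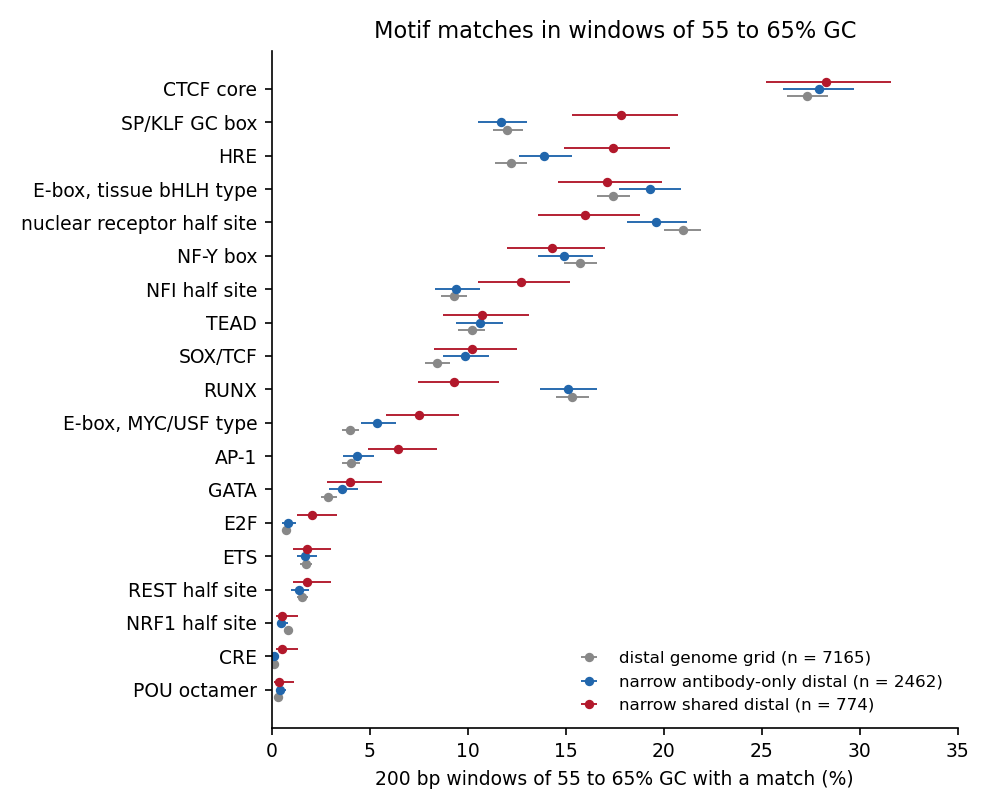
Share of 200 bp windows of 55 to 65% GC that hold each of 19 factor words (x axis, percent), with 95% Wilson intervals, in narrow shared distal peaks, antibody-only peaks and grid windows. The SP/KLF GC box stands higher in the narrow shared distal peaks (17.8% against 11.7% and 12%), the RUNX word lower (9.3% against 15.1% and 15.3%), and most other words close together. At 45 to 55% GC, not plotted, 0 of the 19 words were separated between the 2 sets of peaks, over fewer narrow shared distal peaks (369 against 774).

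A peak with several of these words lay between genes, 14816 bp from the start of ANXA5, which encodes the phospholipid-binding protein annexin A5. It is shown with matches to the words in capitals, which include the AP-1 word and a GC box. It is among the 5 peaks chosen for holding the most different words, with 6 of them, and the others are not shown. Of those 5 peaks, only this peak holds the AP-1 word, so it is not typical of them.
ANXA5 side, chr4:122632891-122633041: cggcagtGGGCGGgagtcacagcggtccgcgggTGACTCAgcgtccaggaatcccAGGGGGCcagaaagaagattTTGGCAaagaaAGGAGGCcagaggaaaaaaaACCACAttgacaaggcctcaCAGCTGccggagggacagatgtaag
The match to TGANTCA reads TGACTCA here. Its FLAG-ZMYND8 partner was 368 bp wide.

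The distance to protein-coding gene starts was shorter than in the antibody-only peaks and the grid. The nearest start of a protein-coding gene was a median of 31269 bp away (28403 to 34203), against 37697 bp (35918 to 39175) for the antibody-only peaks and 96703 bp for the grid. It was under 10 kb away for 22.4% of the peaks, 10 to 50 kb for 40.3%, 50 to 100 kb for 18.2% and 100 kb or more for 19%. The last share was 24.9% in the antibody-only peaks, a difference of -5.87 points (-8.04 to -3.59). The peak lay downstream of that start in 64.8% (62.5 to 67.1) of cases, against 61% and a grid share of 55.4%.

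The nearest protein-coding gene had a ZMYND8 peak at its own start for 39.5% (37.2 to 41.9) of the peaks. The antibody-only peaks gave 40.1%, which was not separated (difference -0.538 points, -3.22 to 2.18), while 32.9% of grid windows and 34.1% of all 20098 protein-coding genes had such a peak. A FLAG-ZMYND8 peak was at the start of the nearest gene for 72.6% (70.4 to 74.7), against 67.8% for the antibody-only peaks (difference 4.8 points, 2.26 to 7.25) and 54.1% for the grid. Neither pull-down had a peak there for 392 of the 1650 peaks (23.8%), against 27.7% for the antibody-only peaks (difference -3.98 points, -6.32 to -1.55) and 41.1% for the grid. The last 2 comparisons use the FLAG-ZMYND8 list, by which the 2 sets of peaks were divided, so they are not independent of the selection.

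Neighbouring peaks formed few groups. Peaks were chained into groups when their midpoints lay within a fixed distance, between 12 and 13 kb. By this, 248 of the 1650 (15%, 13.4 to 16.8) had a neighbour of the same kind, in 113 groups, of which 17 had at least 3 peaks. The antibody-only peaks gave 15.4% (14.4 to 16.4), a larger set that has more chances to chain. The share was 4.53% when each peak had to cover 50% of the other, 8.42% above the minimum width and 28.1% at a chaining distance of 50 kb. The first 2 settings leave 750 and 950 peaks, and a smaller set has fewer chances to chain. The peaks had 1317 different nearest protein-coding genes, of which 1076 had 1 peak, 241 had at least 2 and 16 had at least 4.

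SMAD7, an inhibitory SMAD that restrains TGF-beta and BMP signalling, had the most, with 12 peaks and both of the largest groups. The first group lay in its introns at chr18:46456377-46472769, with 5 peaks 4641, 10102, 13370, 15791 and 20883 bp downstream of the start. Their ZMYND8 widths were 151, 190, 151, 189 and 151 bp, and their FLAG-ZMYND8 partners measured 167, 1064, 209, 709 and 839 bp, so 3 of the 5 partners were much wider than the ZMYND8 peak. The one at 20883 bp was 100 bp from the start of a shorter SMAD7 transcript. The second group lay between genes at chr18:46517586-46543881, with 5 peaks 40326 to 66471 bp upstream, 151 to 677 bp wide. The last 2 peaks were 48527 and 123003 bp downstream. The 12 peaks had 47 to 61.5% GC, and 0 were CpG-rich. The SMAD7 start itself had 0 ZMYND8 peaks and 3 FLAG-ZMYND8 peaks within 3 kb.

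The next groups were smaller, 1 with 4 peaks and 14 with 3, of which EML4 and RYBP are the first by position on the genome. SLC7A5, a transporter of large neutral amino acids, held 4 intronic peaks at chr16:87883575-87894696, all 151 bp wide and 8492 to 19463 bp downstream of the start, of which the farther pair shared a single FLAG-ZMYND8 peak of 2147 bp. EML4, a microtubule-associated protein gene, had 3 peaks between genes at chr2:42360028-42370391, 26177 to 36239 bp upstream and 452, 230 and 151 bp wide. RYBP, a subunit of a variant Polycomb complex, had 3 peaks of 151 bp between genes at chr3:72385998-72397225, 98622 to 109699 bp downstream, whose overlaps with FLAG-ZMYND8 were 34, 1 and 136 bp.

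After SMAD7, 5 genes had at least 5 peaks. ZNF703, a transcriptional corepressor gene, had 11 peaks, all upstream and 12383 to 391478 bp away, 7 of them within other annotated genes such as the long noncoding RNA gene LINC01605, with widths of 151 to 737 bp. BCOR, the BCL6 corepressor gene, had 8, of which 3 lay within BCOR and 3 lay 418197 to 424068 bp downstream. ZNF608, a zinc finger gene, had 8, including a 792 bp peak in its coding exon, 4589 bp from the gene start and 149 bp from a transcript start. FOXC1, a forkhead factor of eye and mesoderm development, had 7, all downstream from 12644 to 211443 bp, of which 6 lay within GMDS, a neighbouring gene of fucose synthesis. ENSG00000288706 on chromosome X, a very short annotated gene at chrX:23801395-23801484, had 5. Those 10628 and 16707 bp downstream of its start were 8646 and 14725 bp from the nearest transcript start, which belonged to SAT1.

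Another 10 genes had 4 peaks each, and the first 4 of them in alphabetical order are described here, with the others being SLC7A5, SMAD2, SPRY4, TRAF3IP2, USP12 and UST. The peaks of BCL2L11, which encodes the apoptosis inducer BIM, lay in its intron or in introns of MIR4435-2HG, a long noncoding RNA, up to 314834 bp downstream. Of those of CCDC182, 3 lay in introns of MSI2, an RNA-binding protein gene. FAM174B had 2 of its 4 within 418 bp of its own transcript starts, and the widest, 626 bp, had 78.5% GC. RYBP added an 888 bp peak in an exon of LINC00877 to its group of 3. Of all 16 genes with at least 4 peaks, 11 had a ZMYND8 peak at their start and 14 a FLAG-ZMYND8 peak, beside 34.1% and 58.1% of all protein-coding genes. The 16 genes were picked by peaks of the same 2 lists, so these counts describe the picked genes and are not an independent result.

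**Figure D5:**
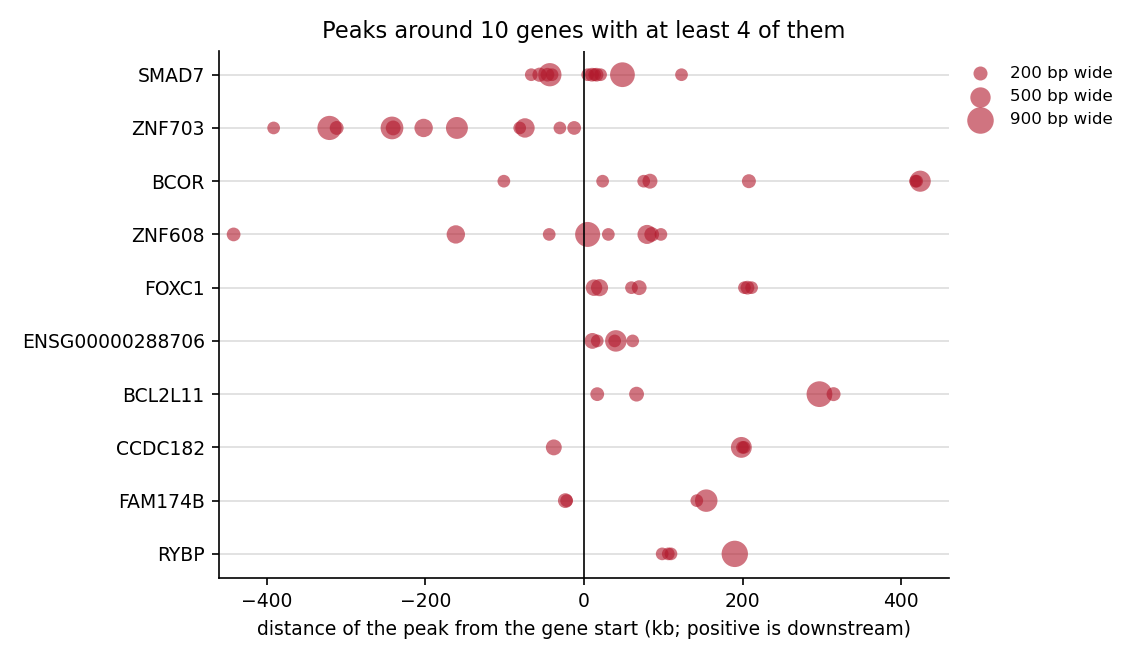
Position of each narrow shared distal peak (x axis, kb from the gene start, positive downstream along the gene) at 10 of the 16 protein-coding genes with at least 4 of them (rows; the 6 with at least 5 and, of the 10 tied at 4, the first 4 by name), with point area rising with peak width. SMAD7 has 7 peaks downstream and 5 upstream of its start, the 11 of ZNF703 lie upstream and the 7 of FOXC1 downstream.

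The peaks farthest from any gene start were in gene introns or large intergenic regions. One 190 bp peak lay 236575 bp from the nearest gene start, beyond the DYSF gene, which encodes the muscle membrane repair protein dysferlin. A 190 bp peak lay in an intron of EPHB1, an ephrin receptor gene, 234592 bp away. The third, of 151 bp, lay in an intron of AUTS2, a gene of brain development, 222813 bp away. The 151 bp peak upstream of GLI3, a factor of hedgehog signalling, was 212977 bp from any gene start and from any transcript start, and it was the only CpG-rich peak of the 5. The peak in GMDS on the FOXC1 side was 211443 bp away. Their FLAG-ZMYND8 partners measured 167 to 301 bp.

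Gene lists that fit the cell line were read against the share of all protein-coding genes. Of the 20098 protein-coding genes, 1611 (8.02%) had a narrow shared distal peak inside them or had one for which they were the nearest gene. The share does not correct for gene length, and the lists hold 5 to 14 genes. Of 12 kidney development factors, 2 had a peak. SIX2, a factor of nephron progenitors, had 1, which was 247952 bp upstream. EYA1, its cofactor, had 2 within the gene, one of which was 3 bp from an EYA1 transcript start in a CpG-rich window.

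Of 10 YAP and TEAD targets and factors, 3 had a peak. AMOTL2, a regulator of Hippo signalling, had 2, at 11274 and 37986 bp downstream. The receptor kinase gene AXL had a 525 bp peak of 79% GC, 417 bp from an AXL transcript start, and TEAD1 had an intronic peak 72521 bp downstream. Of 12 AP-1 and immediate early genes, 3 had a peak. The peak of JUN was 792 bp wide and 101159 bp upstream, but 455 bp from a transcript start of LINC02777. That of JUNB lay in an exon of HOOK2, 33 bp from a HOOK2 transcript start. IER3 had 2, both in the noncoding gene HCG20, at 48 and 2748 bp from HCG20 transcript starts. Of 14 genes of ZMYND8 partners, 3 had a peak. MTA1 and GATAD2A, subunits of NuRD, each held 1 in an intron, the former 176 bp from an MTA1 transcript start, and ZNF532 had 2 upstream.

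Of 8 neural genes that cells of this line are known to express, 0 had a peak. Of the genes that mark other tissues, 0 of 6 hepatocyte genes and 0 of 6 muscle genes had a peak, and of 5 T cell genes CD2 had 1, of 151 bp and between genes. Over such small lists the shares of 16.7% for the kidney list, 30% for YAP and TEAD, 25% for AP-1 and immediate early genes, 21.4% for the partners and 20% for T cell genes describe these lists only.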

How the data were processed

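Reads were aligned by the authors to hg19 using BWA (version 0.7 in the submitters' processing notes), and HOMER made the profiles. They deposited 1 list of peak positions per target, with 6 columns and a score that is 1 in every row. Peak-calling settings and the way replicates were combined are not given in the sources used here. Acetylation and input samples were not analysed here, and 0 columns of sample values were left unused.

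Peak midpoints were placed against GENCODE 44 for GRCh37, which is hg19 by another name (63827 genes and 253343 transcripts on chromosomes 1 to 22 and X). Sequence was read from GRCh37. Shares have 95% Wilson intervals, differences Newcombe intervals and medians order-statistic intervals. Peaks are not replicates, so no p-value was computed. The code was tested on simulated lists. Genes were named as the 10 widest peaks, the 10 genes nearest to most peaks (ties by name), the 5 largest groups (ties by position), the 5 farthest peaks, the listed genes and the peaks at the limits. Of the 17 sequences so chosen, 3 were picked after their values were seen, and 9 are shown. The sequence of the largest group is not reported here. The peaks and lists were chosen with earlier results of these data known. The software was Python 3.11.15 with pysam 0.24.0, numpy 2.4.6, scipy 1.17.1, matplotlib 3.10.9 and pandas 2.3.3.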

Additional observations from a re-analysis of the deposited data

How the results depend on the processing

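No paired analysis was possible because each target has a single list without replicate names. Nor could a replicate be dropped from such a list. Of 64 alternatives, 40 moved a value by less than its counting interval, or a count by less than 1.5 times. The number of peaks fell to 956 at over 10 kb from gene starts, 1057 with the starts of all transcripts, 750 with 50% reciprocal overlap and 950 above the minimum width. The share inside a gene was 76.7% at over 1 kb from gene starts and 60.8% with all transcripts. The share within 1 kb of a transcript start was 32.1% at over 1 kb, 40.4% with protein-coding starts only, 23.2% with reciprocal overlap, 32.6% above the minimum width and, by construction, 0% with all transcripts. Median GC was 58% with all transcripts, 61% with protein-coding starts and 61.8% above the minimum width. The share with a neighbour was 17% with protein-coding starts, 4.53% with reciprocal overlap and 8.42% above the minimum width, and 10.9% or 28.1% with gaps of 5 or 50 kb. The share whose nearest gene had a ZMYND8 peak at its start was 50.4% at over 1 kb. The share with TGANTCA was 8% with reciprocal overlap and, by construction, 14% in 500 bp windows. Peaks over 1 kb from every transcript start, chosen after seeing the data, gave 64.9% inside a gene and a median GC of 58.5%. Where the construction does not set the change, the cause was not tested. The depth is unknown, so how many sites fell short of a call in either list cannot be told.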

Other observations

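By chromosome, the narrow shared distal peaks had a density of 0.543 per Mb in all, highest on chromosome 17 (1.47) and chromosome 19 (1.13) and lowest on chromosome X (0.167). Of the narrow distal ZMYND8 peaks on chromosome X, 26 of 326 were shared with FLAG-ZMYND8, a share of 7.98% (5.5 to 11.4), against 23.9% over all chromosomes and 12.9% (8 to 20.2) on chromosome 21. On chromosome 18, 37 of 112 were shared (33%, 25 to 42.2). Chromosome X held 26 of the peaks in all, and 13 of these 26 belonged to BCOR and ENSG00000288706. The number in each peak's name was turned into a percentile among the ZMYND8 peaks of the same chromosome. Its median was 44.1 in the narrow shared distal peaks, 31.4 in the narrow shared peaks at gene starts and 65.8 in the antibody-only peaks. What that number ranks is not given in the sources used here.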
